A study of Mus musculus with 12 samples.

Results

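Hspa1a, Hspa1b and Hmox1 are stress-inducible genes, and the first 2 are near-identical copies that both encode the inducible HSP70 chaperone. They were found by symbol in the 2 tables that the authors deposited, 1 for each Usp7 construct. All 3 genes were in the knockdown table (3 of 3156 listed transcripts) and Hspa1a and Hspa1b in the overexpression table (2 of 648). Hmox1 was not analysed here for overexpression. The genes were selected on their measured normalized counts, being strongly lower with both constructs (Hmox1 with knockdown), so their levels and folds are a description and carry no test. RNA came from cultured female germline stem cells (FGSCs) of C57BL/6 mice. Usp7 encodes a deubiquitinase, an enzyme that takes ubiquitin off other proteins. The 4 groups were FGSCs with Usp7 overexpression, the control of that overexpression, FGSCs with Usp7 knockdown, and the control of that knockdown, with 3 libraries each and 12 in all. The labels give no time, age, vector or clone, and nothing says that replicates came from separate cultures, so the spread between libraries may be technical.

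HSP70 holds unfolded proteins and, with J-domain cochaperones and nucleotide exchange factors, helps them refold or passes them on for degradation. Transcription of Hspa1a and Hspa1b is switched on by heat shock factor HSF1, which binds repeated heat shock elements in their promoters, and both genes lack introns. Hmox1 encodes heme oxygenase, which breaks heme into biliverdin, carbon monoxide and iron. It is held down by the repressor BACH1 and induced by NRF2 when heme or oxidants accumulate.

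The promoters of the HSP70 pair are shown because the copies differ so little there. Both genes lie on the minus strand of mouse chromosome 17 (GRCm38.p6, RefSeq), Hspa1b at chr17:34956429-34959238 and Hspa1a at chr17:34969359-34972156, with 10120 bases between them. Each is a protein-coding gene of 1 exon. Hmox1 is protein-coding with 5 exons, on the plus strand at chr8:75093618-75100593. Of the 3 genes, the RefSeq promoter sequences used here matched 2, Hspa1a and Hspa1b. The 250 bases before each start are written 5′ to 3′ on the minus strand, at chr17:34972157-34972406 for Hspa1a and chr17:34959239-34959488 for Hspa1b, and capitals mark a pair of facing heat shock units (GAANNTTC).
Hspa1a: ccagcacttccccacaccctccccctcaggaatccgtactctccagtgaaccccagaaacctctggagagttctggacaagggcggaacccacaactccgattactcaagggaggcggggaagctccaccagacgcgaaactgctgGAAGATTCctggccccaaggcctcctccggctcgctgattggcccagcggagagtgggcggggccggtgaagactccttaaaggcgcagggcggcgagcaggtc
Hspa1b: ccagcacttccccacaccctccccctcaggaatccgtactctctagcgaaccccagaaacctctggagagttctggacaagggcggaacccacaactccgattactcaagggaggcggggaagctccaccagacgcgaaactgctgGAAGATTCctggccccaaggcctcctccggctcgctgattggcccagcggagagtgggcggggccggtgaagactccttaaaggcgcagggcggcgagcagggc
With positions counted from 1 at the 5′ end of the window and the Hspa1a base given first, the copies differ at 3 of 250 bases, C44T, T47C and T249G. The marked heat shock pair spans bases 104 to 97 before the start in both and is the same in both. This 8-base motif, which reads the same on either strand, was in 6.69% of 32851 RefSeq windows of the same length. The tail-to-tail form (TTCNNGAA, 7.17% of windows), runs of 3 units (GAANNTTCNNGAA or TTCNNGAANNTTC, 0.466%, which contain the shorter forms) and the antioxidant response core (TGACNNNGC, 10.2%) were searched on both strands and had no match in either window. Only exact matches to these patterns were searched, so imperfect heat shock units were not looked for. A CCAAT box (33.8% of windows) lay 67 to 63 bases before the start on the opposite strand of both copies, and GC boxes (GGGCGG, 32.7%) began 170, 49 and 16 bases before it. None of these matches overlapped the marked pair.

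The transcripts diverge at their 3′ ends. In the GENCODE vM21 annotation (GRCm38) the coding parts of Hspa1a and Hspa1b differed at 8 of 1926 aligned bases (99.6% identity). Of all 50-base windows of the Hspa1a transcript 58.8% were also in Hspa1b, and 62.3% of Hspa1b windows were in Hspa1a. Of the windows in the 3′ untranslated region, 0 of 761 in Hspa1a and 0 of 594 in Hspa1b were shared. No source used here says how the authors' counting treated reads that fit both copies, so the separate values of the copies are uncertain and their sum is given beside them.

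Values are normalized counts, the authors' reads per transcript divided by 1 size factor per library. Whole reads could be recovered from the steps in 10 of 12 library columns, and in those columns the size factors ran from 0.722 to 1.28. The authors listed transcripts past their own test, with log2 folds of at least 0.59 in either direction, and 2902 and 613 of them passed the filter on low values for knockdown and overexpression. All listed members passed that filter. Usp7 itself was not analysed here, so its level does not check the labels. Knockdown control replicate 2 stood apart, with 104 of 2902 tested transcripts over 1 log2 unit above both other controls. In overexpression replicate 2 this held for 16 of 613, and in overexpression replicate 3 for 13. Over 1 log2 unit below both others of the group were 9 transcripts in overexpression replicate 2, 16 in overexpression replicate 3 and 22 in overexpression control replicate 1. Knockdown replicate 3 had 33 above and 27 below.

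In the knockdown table both HSP70 copies were lower in every knockdown library. Hspa1a stood at 1331, 1281 and 1308 normalized counts in control replicates 1, 2 and 3 in turn, and at 61.3, 56.9 and 70.7 in the knockdown libraries. The lowest control was 18.1-fold above the highest knockdown library, and the control libraries lay within a few percent of each other (coefficient of variation 1.92%). The mean went from 1306 ± 25.1 to 63.0 ± 7.03 (SD, n = 3), a 20.8-fold lower level, with a log2 fold of -4.36 ± 0.11 SE on log2(normalized count + 1). The knockdown values rested on 59, 73 and 51 reads, which by counting error alone give 95% Poisson intervals from 44.6 to 92.9 normalized counts at the widest, far under the lowest control interval bound of 1216. In bulk RNA, fewer cells that express a gene and less RNA per cell cannot be told apart.

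Hspa1b had 1402, 1431 and 1402 normalized counts in the control replicates and 149, 180.0 and 216 in the knockdown replicates. The groups were again apart, with the lowest control 6.49-fold above the highest knockdown library. The mean went from 1412 ± 16.9 to 182 ± 33.8 (SD, n = 3), with a log2 fold of -2.97 ± 0.14 SE. Summed over both copies, which removes any exchange of reads between them, the controls held 2733, 2712 and 2710 normalized counts and the knockdown libraries 210.0, 237 and 287. The sum was 11.1-fold lower, with a log2 fold of -3.48 ± 0.12 SE (n = 3 per group). The 3 control sums differed by under 1% (coefficient of variation 0.455%), while the knockdown sums varied more (15.9%).

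Hmox1 had 2863, 2476 and 2783 normalized counts in the control replicates and 606, 595 and 687 in the knockdown replicates. It too was lower in all knockdown libraries, although by less than the HSP70 pair, and the lowest control was 3.60-fold above the highest knockdown value. The mean went from 2707 ± 204 to 629 ± 50.6 (SD, n = 3), a 4.30-fold lower level with a log2 fold of -2.10 ± 0.10 SE. These libraries gave 496 to 763 reads of Hmox1 under knockdown and 2272 to 3505 in the controls. Per kilobase of transcript, Hmox1 was the most abundant of the 3 in both groups. Its level was 401 ± 32.2 normalized counts per kilobase in knockdown against 64.8 ± 12.1 for Hspa1b and 21.2 ± 2.37 for Hspa1a (SD, n = 3). In the controls the levels per kilobase were 1726 ± 130.1, 504 ± 6.02 and 440.3 ± 8.46 in the same order. Neighbours in this order were separated by more than the SD in both groups. These levels use full transcript lengths, and how reads that fit both HSP70 copies were counted is not known. The levels per kilobase of the copies, and so the order, are therefore uncertain.

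The ratio of Hmox1 to the HSP70 sum within a library does not depend on how libraries are scaled. It was 1.05, 0.913 and 1.03 in the control replicates and 2.89, 2.51 and 2.40 in the knockdown replicates. The ratio was higher in every knockdown library than in any control.

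**Figure D1:**
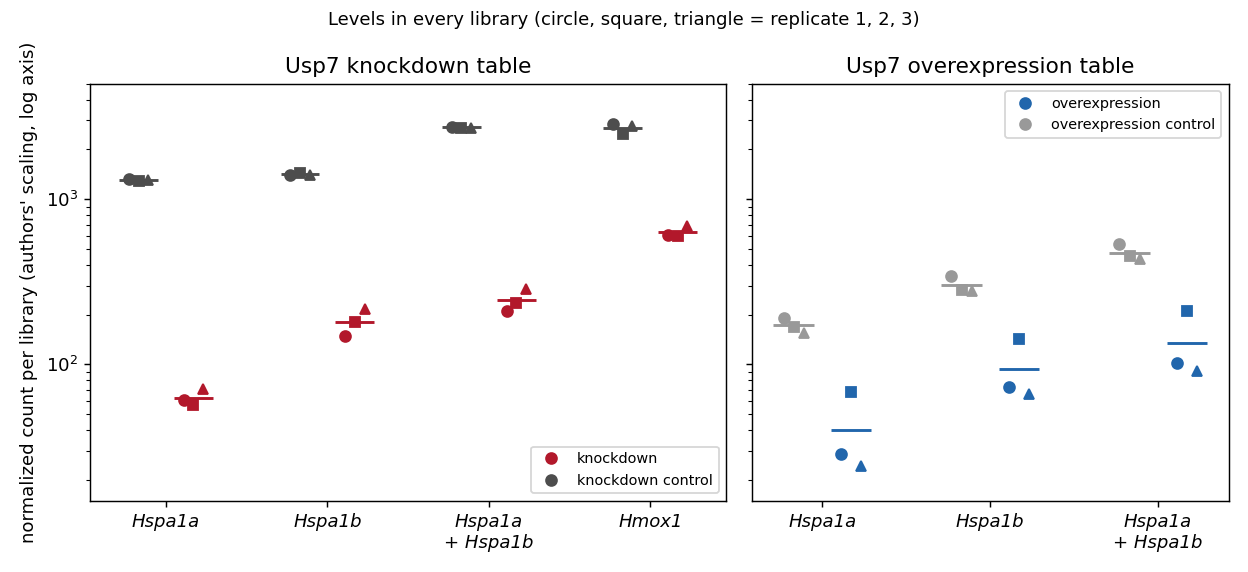
Normalized counts (log axis) of Hspa1a, Hspa1b, their sum and Hmox1 in each library of the knockdown table (left) and of Hspa1a, Hspa1b and their sum in the overexpression table (right); symbols are replicates, bars are group means. Controls lie above the construct libraries for every gene shown, by the widest margin for Hspa1a in knockdown, and overexpression replicate 2 (square) is the highest of its group.

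Both HSP70 copies were also lower in the overexpression libraries than in their controls. Hspa1a stood at 192, 170 and 155 normalized counts in replicates 1, 2 and 3 of the overexpression control, and at 28.6, 67.8 and 24.4 in the overexpression libraries. The groups did not overlap, but replicate 2 of overexpression stood well above the other overexpression libraries. The mean went from 172 ± 18.6 to 40.3 ± 23.9 (SD, n = 3), a 4.28-fold lower level with a log2 fold of -2.21 ± 0.33 SE. Recovered reads of Hspa1a were few here, with 62 in overexpression replicate 2 and 18 in replicate 3, against 153 and 168 in control replicates 2 and 3.

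Hspa1b had 342, 281 and 279 normalized counts in the overexpression controls and 73.5, 143 and 66.5 in the overexpression libraries. Replicate 2 was again the high library of its group, still 1.95-fold under the lowest control. The mean went from 301 ± 35.6 to 94.4 ± 42.4 (SD, n = 3), with a log2 fold of -1.74 ± 0.26 SE. The sum of the copies was 534, 451 and 435 in the controls and 102, 211 and 91.0 in overexpression, a 3.51-fold lower mean with a log2 fold of -1.90 ± 0.27 SE. Without overexpression replicate 2 the log2 folds were -2.65 for Hspa1a, -2.08 for Hspa1b and -2.28 for the sum.

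The HSP70 copies did not keep the same proportion. Hspa1a made up 48.7%, 47.2% and 48.3% of the sum in the knockdown controls and 29.2%, 24.0% and 24.6% under knockdown. In the overexpression controls its share was 36.0%, 37.6% and 35.7%, and in the overexpression libraries 28.0%, 32.1% and 26.9%. Both construct groups thus had a lower Hspa1a share than their own controls in every library, and the control groups of the tables differed from each other. The group means were 48.1% ± 0.759 and 25.9% ± 2.84 for knockdown control and knockdown, and 36.4% ± 1.01 and 29.0% ± 2.76 for overexpression control and overexpression (SD, n = 3). In log2 folds Hspa1a was lower than Hspa1b by a further 1.39 in knockdown and 0.47 in overexpression, with fitted differences of -1.39 ± 0.12 SE and -0.47 ± 0.11 SE. Since the ratio is taken within a library, scaling does not enter it, but the split of shared reads between the copies does. The part of that split in the change of share was not tested.

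**Figure D2:**
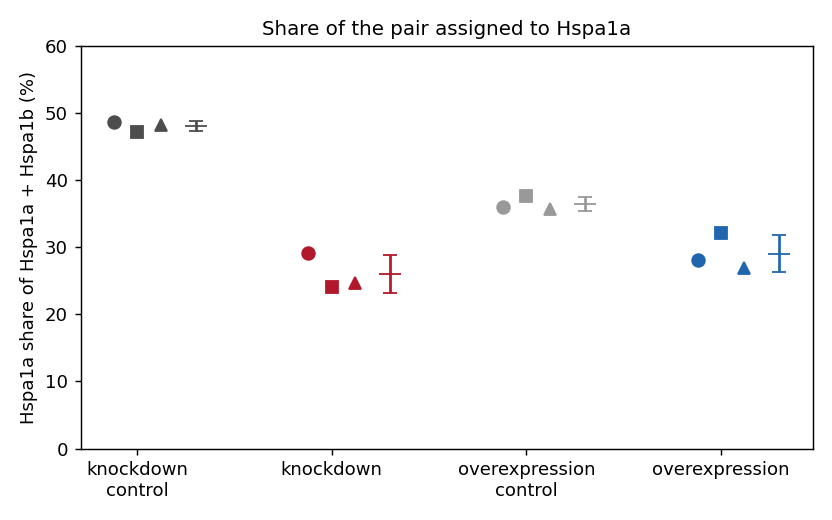
Hspa1a as a percentage of Hspa1a plus Hspa1b normalized counts in each library of the 4 groups; symbols are replicates 1 to 3 and the bar beside them is the mean ± SD. The share is 47.2% to 48.7% in the knockdown controls, 35.7% to 37.6% in the overexpression controls and 24.0% to 32.1% in the libraries of both constructs.

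The tables were normalized separately, so levels can be set side by side across them but not tested. The controls of the knockdown table averaged 7.58-fold more Hspa1a and 4.69-fold more Hspa1b than those of the overexpression table. The levels under the constructs were nearer, at 63.0 and 40.3 normalized counts for Hspa1a and 182 and 94.4 for Hspa1b in knockdown and overexpression. Such a gap between the control groups was usual among the 412 transcripts listed in both tables with a control mean of at least 50 in either. Their median log2 ratio of knockdown control to overexpression control was 3.14 (quartiles 1.34 and 3.85), against 2.91 for Hspa1a and 2.23 for Hspa1b. Over the same transcripts the median log2 ratio of knockdown to overexpression was 0.06, against 0.63 for Hspa1a and 0.94 for Hspa1b. The spread of that ratio is not given here, so its median does not say how near single transcripts were.

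Against the whole of each table the HSP70 genes ranked low in fold. Hspa1a had the 4th lowest log2 fold of 2902 in knockdown, Hspa1b the 27th and Hmox1 the 120th, and in overexpression the HSP70 copies were 73rd and 95th of 613. A log2 fold of -2 or lower was reached by 3 of 3 members in knockdown and by 1 of 2 in overexpression, against 5.24% and 13.4% of all tested transcripts. The groups of all members were fully apart with the construct lower, which held for 50.6% of tested transcripts in knockdown and 34.7% in overexpression (in either direction 99.5% and 100%). Because both the authors' listing and the choice of members used these contrasts, nothing follows from that comparison. The median log2 fold over all tested transcripts was -0.61 in knockdown and 1.31 in overexpression with the authors' scaling. Relative to that median, Hspa1a was at -3.75, Hspa1b at -2.36 and Hmox1 at -1.49 in knockdown, and Hspa1a at -3.53 and Hspa1b at -3.06 in overexpression. With libraries scaled to column totals or by the median of ratios, the same relative values were -3.71 and -3.76, -2.32 and -2.37, and -1.46 and -1.50 in knockdown. Rescaling shifts every transcript of a library by nearly the same log2 amount, so this agreement was fixed in advance. These relative values depend on which transcripts are tested. Leaving out any 1 knockdown control library, with the same filter, turned the median to between 0.58 and 0.60 and moved Hspa1a to between -4.95 and -4.93, Hspa1b to between -3.58 and -3.54 and Hmox1 to between -2.75 and -2.66. In overexpression Hspa1a relative to the median was -2.75 without overexpression replicate 3 and -3.82 without control replicate 3.

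**Figure D3:**
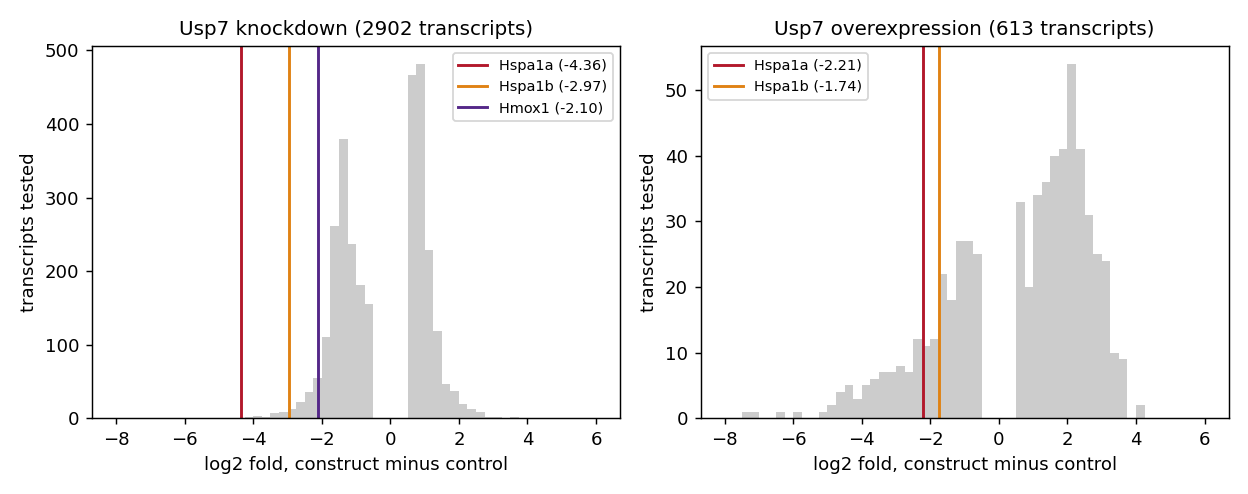
Number of tested transcripts by log2 fold (construct minus control) for knockdown (left, 2902) and overexpression (right, 613), with lines at the members. The empty centre reflects the authors' listing of changed transcripts, and the members lie in the lower tail, Hspa1a farthest out in knockdown at -4.36.

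The transcripts whose profile over the 6 knockdown-table libraries came nearest to each member were found by the root mean square difference of log2 values centred on the controls, among 2124 candidates with a mean of at least 50. Nearest to Hspa1a were Trib3, a pseudokinase induced by ATF4 (0.19 log2 units), Chac1, which degrades glutathione (0.24), and Ctsg, a granule protease (0.36). Their log2 folds were -4.61 ± 0.09, -4.06 ± 0.12 and -4.19 ± 0.30 SE. Nearest to Hspa1b were Ndrg1 (0.19), Ciart, a circadian repressor (0.25), and Ddit4, an inhibitor of mTORC1 (0.25). Hmox1 was nearest to Por, the reductase that passes electrons to heme oxygenase and cytochrome P450 enzymes (0.11), then to the glycine transporter gene Slc6a9 (0.13) and Pik3ip1 (0.16). Hspa1b was at 0.99 from Hspa1a by the same measure and Hmox1 at 0.63 from Hspa1b, so none of the members was the nearest to another.

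Other genes of the chaperone system were described from 6 lists drawn up with earlier results of these data known. Of their other genes 22 were tested in knockdown, and 11 rose and 11 fell with the authors' scaling (limma, Benjamini-Hochberg (BH) adjusted p under 0.05). With libraries scaled to column totals limma called 0 higher (1 at an unadjusted p under 0.05) and 11 lower, and with no scaling 4 rose and 11 fell. Over all tested transcripts 49.1% rose, 50.7% fell and 99.9% passed in either direction, so the counts say only which way listed genes went. Within the HSP70 and HSP110 family the other listed genes had smaller folds than Hspa1a and Hspa1b. Hspa4l, an HSP110 chaperone abundant in testis, fell with a log2 fold of -0.81 ± 0.17 SE (limma, BH-adjusted p = 0.0015), its mean normalized count going from 897 ± 14.7 down to 524 ± 131 (SD, n = 3). Hspa12b, a distant relative known from endothelium, rose from 28.0 ± 4.82 to 51.9 ± 10.5 (0.86 ± 0.22 SE, limma, BH-adjusted p = 0.00379) with the authors' scaling, but no longer passed with column totals (0.07) or with no scaling (0.74). Hspa1l, the HSP70 gene of spermatids, starts 546 bases from Hspa1a on the other strand and was listed for overexpression alone. It had 96.6, 96.4 and 103 normalized counts in the overexpression controls and 37.7, 32.8 and 33.9 under overexpression, a fall with a log2 fold of -1.48 ± 0.20 SE (limma, BH-adjusted p = 5.07e-05). Of the 50-base windows of Hspa1a, 7.95% were also in Hspa1l. Within 100000 bases of the HSP70 pair, 1 of the 18 other protein-coding genes was listed for knockdown and 1, Hspa1l, for overexpression.

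Of 7 tested J-domain genes, whose products deliver clients to HSP70, 5 fell and 2 rose in knockdown with the authors' scaling (median log2 fold -0.88), while with column totals 5 fell and limma called 0 higher (1 at an unadjusted p under 0.05; median -1.68). Dnajb9, a cochaperone of the endoplasmic reticulum (-2.37 ± 0.21 SE), and the testis genes Dnajb13 (-1.36 ± 0.16) and Dnajb3 (-1.30 ± 0.17) fell, and Dnajc11, a mitochondrial protein, rose (1.06 ± 0.10), but was at 0.25 under column totals and no longer passed. All 7 tested genes of the HSP90, chaperonin and other chaperone list rose with the authors' scaling (median 0.85), among them the chaperonin subunits Cct6a (0.92 ± 0.09 SE) and Cct5 (0.85 ± 0.26), Hspe1, the mitochondrial partner of HSP60 (0.87 ± 0.11), and the HSP90 cochaperone Ptges3 (0.85 ± 0.13). With libraries scaled to column totals limma called 0 of these 7 (0 at an unadjusted p under 0.05) and their median was 0.04, and with no scaling 3 were called. The listed transcript of Cct5 was low, with a control mean of 49.0 ± 13.3 normalized counts (SD, n = 3) against 2346 ± 156 for Cct6a. Its lowest knockdown value (62.35) lay next to its highest control value (62.08). Bag2, an exchange factor of HSP70, was the listed gene of its group and rose (0.81 ± 0.10 SE), but was at -0.0039 under column totals. Hspe1 went from 2813 ± 162 to 5182 ± 688 normalized counts (SD, n = 3), the opposite direction to Hspa1a in the same libraries.

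Small heat shock proteins and heat shock factors listed here were mostly germ cell members of their families. In knockdown all 3 small heat shock genes fell, namely Odf1 of the sperm tail (-1.69 ± 0.22 SE), the testis gene Hspb9 (-1.39 ± 0.19) and Hspb7 of muscle (-1.10 ± 0.26). Hsf5, a heat shock factor of male germ cells, fell in knockdown with a log2 fold of -1.47 ± 0.12 SE (limma, BH-adjusted p = 2.01e-05), with means of 363 ± 19.6 in control and 131 ± 14.9 in knockdown (normalized counts, SD, n = 3), as did Hsf2bp, a meiotic recombination factor (-1.66 ± 0.25). HSF1, the factor known to induce Hspa1a, was not analysed here. In overexpression Hsf5 rose with a log2 fold of 2.54 ± 0.25 SE (limma, BH-adjusted p = 5.84e-06), with means of 17.3 ± 3.45 in control and 104 ± 10.6 in overexpression (normalized counts, SD, n = 3). Against its own controls Hsf5 thus moved in opposite directions in the 2 tables, unlike the HSP70 copies, which were lower in both. Its means under the constructs were near each other (131 in knockdown and 104 in overexpression), while its control means were 363 and 17.3. The tables were normalized separately, and the part of the control groups in these directions was not tested.

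Of the chaperone lists, 7 other genes were tested in overexpression, and 4 rose and 3 fell, where 65.3% of all tested transcripts rose, 34.7% fell and 100% passed in either direction. Besides Hsf5 and Hspa1l these were the testis J-domain gene Dnajb8 (-3.35 ± 0.42 SE), Odf1 (-2.73 ± 0.24), Hspb9 (1.24 ± 0.23) and the endoplasmic reticulum cochaperones Dnajb11 (0.64 ± 0.16) and Dnajc3 (0.64 ± 0.17). Dnajb8 passed the filter on low values only through the control libraries. With median-of-ratios scaling Dnajb11 and Dnajc3 turned to -0.57 and -0.58, and Hspb9 was at 0.04 and no longer passed.

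**Figure D4:**
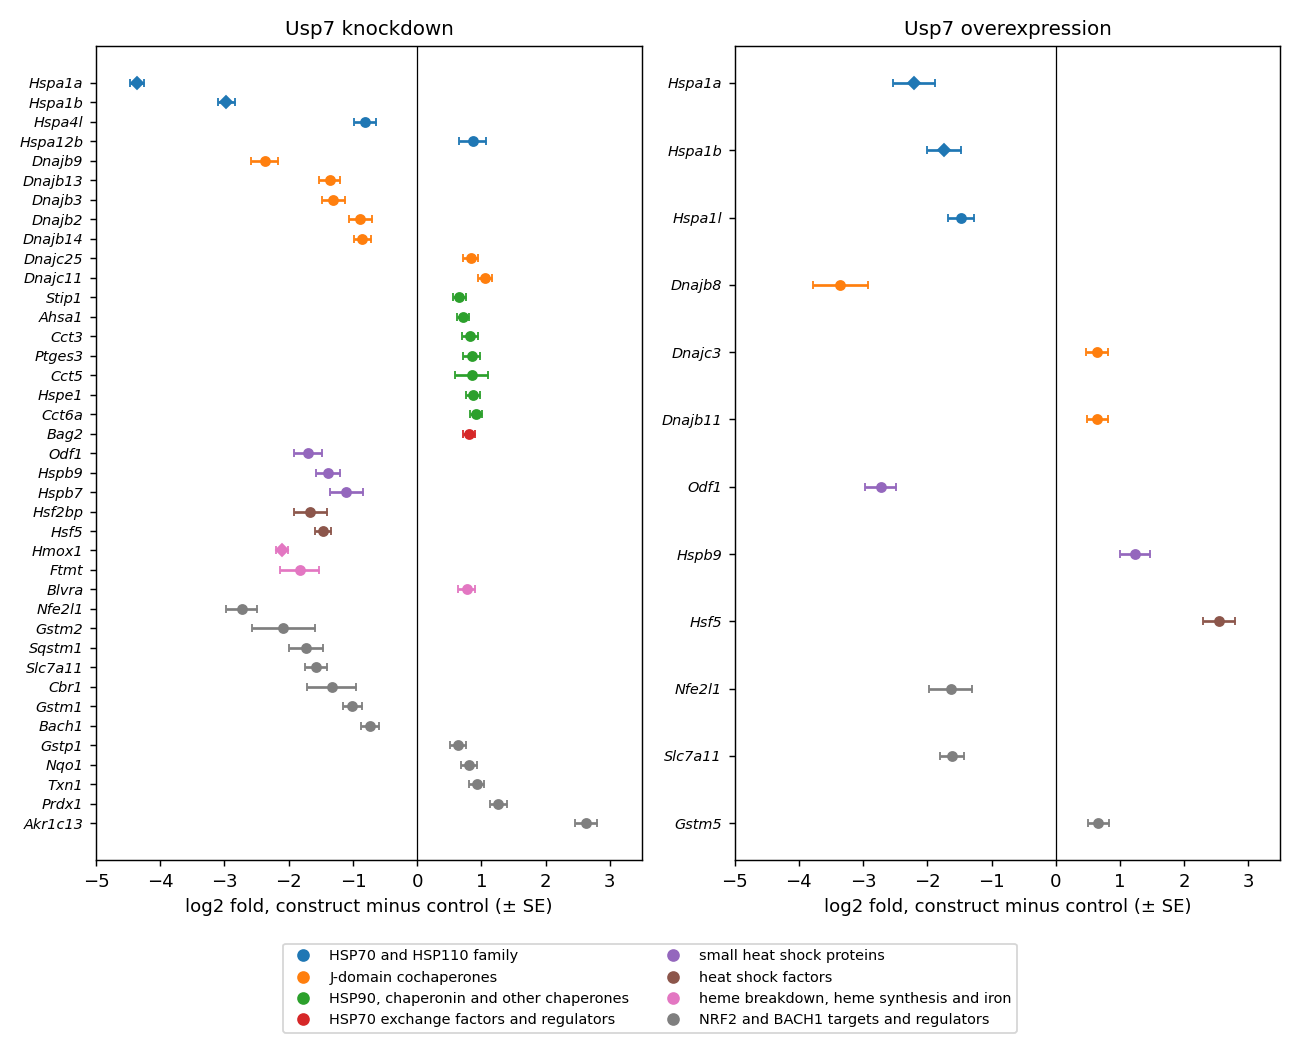
Log2 folds (construct minus control, ± SE from limma) of every tested gene of the chaperone, heme and NRF2 lists in knockdown (left) and overexpression (right), coloured by list; diamonds are Hspa1a, Hspa1b and Hmox1. In knockdown the HSP90 and chaperonin genes lie between 0.66 and 0.92 with the authors' scaling (0 of 7 called under column totals), while Hspa1a and Hspa1b lie at -4.36 and -2.97.

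Of the heme and iron list, 2 other genes were tested in knockdown. Blvra, the biliverdin reductase that acts on the product of heme oxygenase, rose with a log2 fold of 0.77 ± 0.13 SE (limma, BH-adjusted p = 4.88e-04; means 107 ± 3.38 in control and 185 ± 23.4 in knockdown), but was at -0.0328 under column totals. Ftmt, the mitochondrial ferritin, fell (-1.83 ± 0.31 SE) from a low level of 18.2 ± 1.79, and passed the filter on low values only through the controls. Of 12 tested NRF2 and BACH1 targets and regulators, 7 fell and 5 rose with the authors' scaling (median log2 fold -0.87). With column totals, where 13 were tested, 8 fell and 2 rose (median -1.82), and with no scaling 7 fell and 3 rose (median -0.99). The largest changes were in the listed transcript of Nfe2l1, a factor related to NRF2 (-2.73 ± 0.24 SE), the aldo-keto reductase gene Akr1c13 (2.63 ± 0.17), the glutathione transferase gene Gstm2 (-2.08 ± 0.50) and the autophagy receptor gene Sqstm1 (-1.73 ± 0.27). Gstm2 stood at 53.9, 173 and 41.6 normalized counts in the controls, highest in replicate 2, and was at -1.47 without that library, a smaller fold than that of Sqstm1. Akr1c13 and Gstm2 belong to families of similar genes, and their values may include reads of relatives.

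A further 5 genes of that list were named after their values were seen. As 99.9% of all tested knockdown transcripts passed, the adjusted p-values of these genes are a description and not evidence. Bach1, the repressor of Hmox1, fell in knockdown with a log2 fold of -0.73 ± 0.14 SE (limma, BH-adjusted p = 9.88e-04; means 644 ± 17.1 in control and 392 ± 73.4 in knockdown), in the same direction as Hmox1. Among the NRF2 targets there were rises with the authors' scaling in Nqo1, a quinone reductase (0.81 ± 0.13 SE), the thioredoxin gene Txn1 (0.93 ± 0.12) and the peroxiredoxin gene Prdx1 (1.26 ± 0.13), of which Nqo1 and Txn1 were at 0.01 and 0.12 under column totals. The cystine transporter gene Slc7a11, a target of both NRF2 and ATF4, fell in knockdown with a log2 fold of -1.57 ± 0.17 SE (limma, BH-adjusted p = 5.69e-05; means 798 ± 44.0 in control and 274 ± 69.9 in knockdown). Slc7a11 and Nfe2l1 fell in overexpression as well (-1.61 ± 0.19 and -1.64 ± 0.33 SE), where Gstm5 rose (0.67 ± 0.17) and turned to -0.55 with median-of-ratios scaling.

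The listed markers of other cells and of the germline were lower under knockdown than in the controls. Over all tested transcripts 50.7% fell and 99.9% passed in either direction (limma, BH-adjusted p under 0.05). The falls thus say only which way the listed markers went. Of 7 genes taken as macrophage markers, Cd68 and Ptprc were listed, and Ptprc is not specific to macrophages. Their summed level was 384 to 432 normalized counts in the controls and 140.3 to 172 under knockdown. Cd68 alone went from 308 ± 18.9 to 99.45 ± 7.37 (SD, n = 3). Of 9 fibroblast markers, Col1a1 and Col1a2 were listed, with sums of 328 to 1553 in the controls and 92.0 to 130.2 under knockdown. Endothelial markers Cdh5 and Kdr (2 of 4) summed to 12.2 to 75.3 and 0 to 8.31, below the filter, and none of the granulosa or erythroid markers was used. Their part in the lower Hmox1 and HSP70 levels was not tested. Knockdown control replicate 2, the library that stood apart, had the highest collagen levels and the lowest Hmox1 and Hspa1a of its group. Its Hspa1b was the highest of the group (1431 against 1402 and 1402 normalized counts). The HSP70 sum of that library (2712) lay between those of the other controls (2733 and 2710). Without that library the log2 folds were -4.37 for Hspa1a, -2.96 for Hspa1b and -2.17 for Hmox1. Of 14 germline markers, 3 were listed for knockdown, with a summed level of 372 to 454 normalized counts in the controls and 146 to 150 under knockdown. Tex101 (-1.48 ± 0.12 SE) and Id4 (-1.05 ± 0.21) fell, and Ifitm3 was below the filter. In overexpression Tex101 alone was listed and rose, from 5.63 ± 2.65 to 119 ± 24.9 normalized counts (SD, n = 3; 4.24 ± 0.35 SE). Its control values were 3.02, 5.54 and 8.32, so Tex101 passed the filter on low values only through the overexpression libraries. The filter thus fixed its direction. The listed markers were too few to check the labelled cell type, and their part in the members' levels was not tested.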

How the data were processed

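RNA was measured in 12 libraries of FGSCs in 4 groups of 3, as the sample titles give. Bowtie 0.12.2, mm10 and GRCm38 are named in the submitters' processing notes; no source used here gives the counting tool, the strand setting or the test. Per table, the authors deposited normalized counts (a signal made by dividing reads by 1 size factor per library) and, from their own test, a log2 fold change with its SE, a test score and p-values with adjusted p-values. Every library value was a whole multiple of 1 step (100% within 0.001 of a read), and reads were taken as recovered in 10 columns. Since only selected transcripts are listed, total depth is unknown; intervals cover counting error only.

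As planned for normalized values, folds came from limma 3.58.1 under R 4.3.3, fitted within a table on log2(normalized count + 1) with trended variance and BH adjustment over the table. Low transcripts were left out (a value of 10 or more was needed in 3 or more libraries, and a total of 15 or more). That scale understates changes of low transcripts. The sum of Hspa1a and Hspa1b was fitted in place of the 2 rows. edgeR 4.0.16 and DESeq2 1.42.0 were run on recovered reads of the knockdown table. limma was also tried on simulated data for the knockdown table (2946 transcripts, 200 made to change). There it recovered 40.9% of 1.5-fold, 86.1% of 2-fold and 100% of 4-fold changes, with 6.25% of calls false. Most simulated transcripts were left unchanged, whereas the real ones were listed by the authors' test and 99.9% of those tested were called. The simulation therefore cannot give the share of real changes found or of real calls that are false.

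Members and lists were chosen with earlier results of these data known. Named genes were all listed ones of the HSP70, small heat shock, heat shock factor and heme lists, the 4 with the largest folds of each other list, and the 3 nearest profiles per member. Replicate numbers did not pair libraries (correlations of deviations from -0.11 to 0.05).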

Additional observations from a re-analysis of the deposited data

How the results depend on the processing

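Every member and the sum kept a negative log2 fold under all alternatives run, 15 in knockdown and 12 in overexpression. Scaling moved them most. With median-of-ratios scaling the log2 folds in knockdown were -4.06 for Hspa1a, -2.66 for Hspa1b, -1.80 for Hmox1 and -3.18 for the sum, and in overexpression -3.41, -2.95 and -3.12 for Hspa1a, Hspa1b and the sum. With column totals those in knockdown were -5.16, -3.78, -2.91 and -4.29, and with no scaling Hmox1 was -2.23. Leaving out 1 overexpression or control library gave -2.65 to -1.94 for Hspa1a, -2.08 to -1.54 for Hspa1b and -2.28 to -1.68 for the sum, and leaving out 1 knockdown or control library gave -4.44 to -4.29 for Hspa1a. Hspa1a minus Hspa1b stayed between -1.51 and -1.32 in knockdown and between -0.57 and -0.39 in overexpression.

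Calls in knockdown were 2898 (1426 higher) and with column totals 1818, of which 264 higher; with no scaling 696 were higher. The higher chaperone genes went from 11 to 0 with column totals and 4 with no scaling, and the higher heme and NRF2 genes from 6 to 2 and 3. In overexpression median-of-ratios scaling gave 197 higher calls in place of 400, 1 higher and 5 lower chaperone genes, and 0 higher heme and NRF2 genes. With column totals Bag2 (-0.0039) and Blvra (-0.0328) were near 0 in knockdown and no longer passed (limma, BH-adjusted p = 0.975 and 0.841). With median of ratios Dnajb11 (-0.57), Dnajc3 (-0.58) and Gstm5 (-0.55) reversed in overexpression. Ftmt in knockdown and Dnajb8 in overexpression did not pass the filter, and so were not tested, when a control library was left out. Both scalings assume that listed transcripts are on balance unchanged; the cause of the differences was not tested further. edgeR and DESeq2 on recovered reads each called 2910 transcripts in knockdown, with Hspa1a at -4.39 and -4.40. The count models and the run without scaling were not run for overexpression. With the replicate block the counts were again 2898 and 613, with Hspa1a at -4.36 ± 0.13 SE and -2.21 ± 0.26 SE, and no call named here changed. The 18 to 73 reads of Hspa1a in the construct libraries limit its precision.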

Other observations

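In the overexpression table the profiles nearest to those of Hspa1a and Hspa1b, among 329 candidates and chosen after their values were seen, were both led by that of Plekhf1, an endosomal protein gene, at 0.23 and 0.14 log2 units. Its level was 110 ± 18.2 normalized counts in the controls and 29.7 ± 14.1 under overexpression (SD, n = 3). Trib3 and Chac1, the nearest profiles to Hspa1a in knockdown, were also lower in overexpression, values likewise chosen after they were seen, with log2 folds of -2.84 ± 0.15 and -3.36 ± 0.19 SE.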
